A study of Mus musculus with 8 samples.

Results

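The genes described here are 10 genes of the NF-κB system: the subunit genes Nfkb1, Nfkb2, Rela and Relb, the inhibitor genes Nfkbia, Nfkbie and Nfkbiz, the feedback genes Tnfaip3 and Birc3, and the TNF receptor gene Tnfrsf1a. They were chosen by symbol, and all 10 were found among the 55276 gene symbols of the deposited tables. Their mRNA was measured by RNA-seq in fibro-adipogenic progenitors (FAPs), the mesenchymal progenitors of skeletal muscle, which were sorted as GFP+ cells from injured tibialis anterior muscle. There were 8 libraries, 2 for each of 4 groups: control and Osr1cKO FAPs at 3 days post-injury (dpi), and control and Osr1cKO FAPs at 7 dpi. Controls carried the genotype Osr1 flox/+ CAGG Cre+ and were therefore heterozygous for Osr1 after recombination. Osr1cKO mice carried Osr1 flox/flox CAGG Cre+. All groups shared the tamoxifen-inducible, ubiquitously driven Cre, the tamoxifen treatment, the freeze-pierce injury and an age of 4 to 6 months, and the sorted cells expressed GFP from the recombined Osr1 allele. No group without Cre, without tamoxifen or without injury was analysed here. A library held RNA of 1 mouse at 3 dpi and of 4 pooled mice at 7 dpi, so day and pooling cannot be told apart, and neither can a possible change of sequencer between the days.

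NF-κB is a family of dimeric transcription factors that are held in the cytoplasm by inhibitors of the IκB class. When a cytokine such as TNF binds its receptor, IκB kinases mark the inhibitors for degradation and the dimers enter the nucleus. Their targets include their own inhibitors and the enzyme A20, so that the response is limited by genes that it switches on. In FAPs, which receive TNF and interleukin signals from immune cells of the injured muscle, the pathway is linked to cytokine production and cell survival.

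The labels were checked first. TPM, the deposited unit, scales reads by the exon length of a gene and by the library total. Osr1 was at 105 and 91.0 TPM in controls of 3 dpi, against 70.7 and 71.9 TPM in Osr1cKO FAPs. At 7 dpi it was at 67.6 and 71.6 TPM against 64.4 and 60.8 TPM. It was lower in all Osr1cKO libraries than in the controls of the same day. The log2 fold change was -0.45 at 3 dpi (limma adjusted p = 0.774) and -0.28 at 7 dpi (limma adjusted p = 0.318). These values are for the whole gene and against heterozygous controls. The paper judged the deletion by reads of exons 2 and 3, which it reports as strongly reduced in Osr1cKO FAPs at both days. It also reports lower Osr1 mRNA by RT-qPCR in Osr1cKO FAPs at 3 dpi. FAP markers were present in every library, with Pdgfra between 197 and 366 TPM, and the leukocyte marker Ptprc was below 1 TPM in all 8 libraries. The 10 macrophage markers summed to between 29.2 and 34.4 TPM at 3 dpi, 60.7 to 63.8 TPM in control FAPs at 7 dpi and 80.6 to 101 TPM in Osr1cKO FAPs at 7 dpi. Depth lay between 36516566 and 51096408 recovered fragments per library, and between 477 and 27272 fragments stood behind each value of the 10 genes. In these bulk samples, fewer cells of a type and less RNA per cell cannot be told apart. The limma p-values set a difference against the spread between libraries, estimated from 2 libraries per group and partly from other genes.

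The promoters bear on the genes that are described together below, because NF-κB binds a degenerate motif in the promoters of its own feedback genes. RefSeq promoter windows (GRCm38.p6, from 250 bases before to 50 bases after the start) were at hand for 7 of the 10 genes: Nfkb2, Rela, Nfkbia, Nfkbie, Tnfaip3, Birc3 and Tnfrsf1a. The κB decamer consensus was searched on both strands, with overlapping matches merged. It was found in windows of Nfkb2, Nfkbia, Nfkbie and Tnfaip3, 4 of the 7 genes, and in windows of 9.6% of all 27025 genes with a window. Single windows held it in 8.5% of all cases and at least 2 matches in 0.52%. Rela, Birc3 and Tnfrsf1a had no match within these letters and this window. The stretches below lie upstream of the RefSeq start of their window and outside the annotated exons of their gene. Those of Tnfaip3 and Nfkb2 lie within the annotated gene. Nfkb2 had windows 1, 2 and 3, with 2, 2 and 1 matches, where windows 2 and 3 overlap and the match of window 3 is also the second of window 2. Its stretch is from window 2, since those of windows 1 and 3 overlap its exons. Capitals mark the matches, and all are shown 5′ to 3′ on the strand of the gene.
Tnfaip3, chr10:19015411-19015545, minus strand: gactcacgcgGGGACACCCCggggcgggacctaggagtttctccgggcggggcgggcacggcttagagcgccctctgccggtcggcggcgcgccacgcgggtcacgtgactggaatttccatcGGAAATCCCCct
Nfkbia, chr12:55492657-55492686, minus strand: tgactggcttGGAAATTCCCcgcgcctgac
Nfkbie, chr17:45555584-45555613, plus strand: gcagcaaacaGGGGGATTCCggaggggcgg
Nfkb2, chr19:46305449-46305478, plus strand: tccgacggcaGGAATGTCCCcacaaaagcc
The Tnfaip3 stretch holds its matches from base -125 to -116 and from base -12 to -3, counted from the start. The single matches of Nfkbia and Nfkbie end at bases -20 and -97. A match is a description of the letters and was not measured as a binding site here.

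All 10 genes were expressed in every group. Nfkbia, which encodes the inhibitor IκBα, was the highest of them in each group, with means of 1125 ± 292 TPM at 3 dpi and 1224 ± 13.2 TPM at 7 dpi in control FAPs (mean ± SD, n = 2 libraries). In Osr1cKO FAPs these means were 983 ± 22.5 and 1243 ± 241 TPM. It stood at or above percentile 99.1 of the tested genes. Tnfrsf1a, the receptor that carries most TNF signalling in mesenchymal cells, and Nfkbiz, a nuclear inhibitor that also acts as a co-activator, came next, with group means between 397 and 475 TPM for Tnfrsf1a and between 297 and 394 TPM for Nfkbiz. The libraries of these genes were separate at 3 dpi but overlapped at 7 dpi in both genotypes. Nfkbie, which encodes the inhibitor IκBε, was lowest in every group, with means between 16.7 and 37.8 TPM, followed by Relb. The deposited TPM goes with the merged length of all annotated exons of a gene, 12061 bases for Nfkb1 and 1610 for Nfkbia. A gene whose transcripts cover only part of that length has an understated level, so the order between genes depends on these lengths.

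The order changed between the days for Tnfaip3 and Nfkb1. Tnfaip3 held rank 7 of the 10 genes at 3 dpi in both genotypes. At 7 dpi it held rank 5 in control FAPs, above Rela without overlap, and rank 7 in Osr1cKO FAPs, where its libraries overlapped those of Nfkb2. Nfkb1 held rank 6 in control and rank 5 in Osr1cKO FAPs at 3 dpi, and rank 4 in both genotypes at 7 dpi. At 3 dpi its libraries overlapped those of Nfkb2 in control FAPs, and those of Rela and Nfkb2 in Osr1cKO FAPs.

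**Figure D1:**
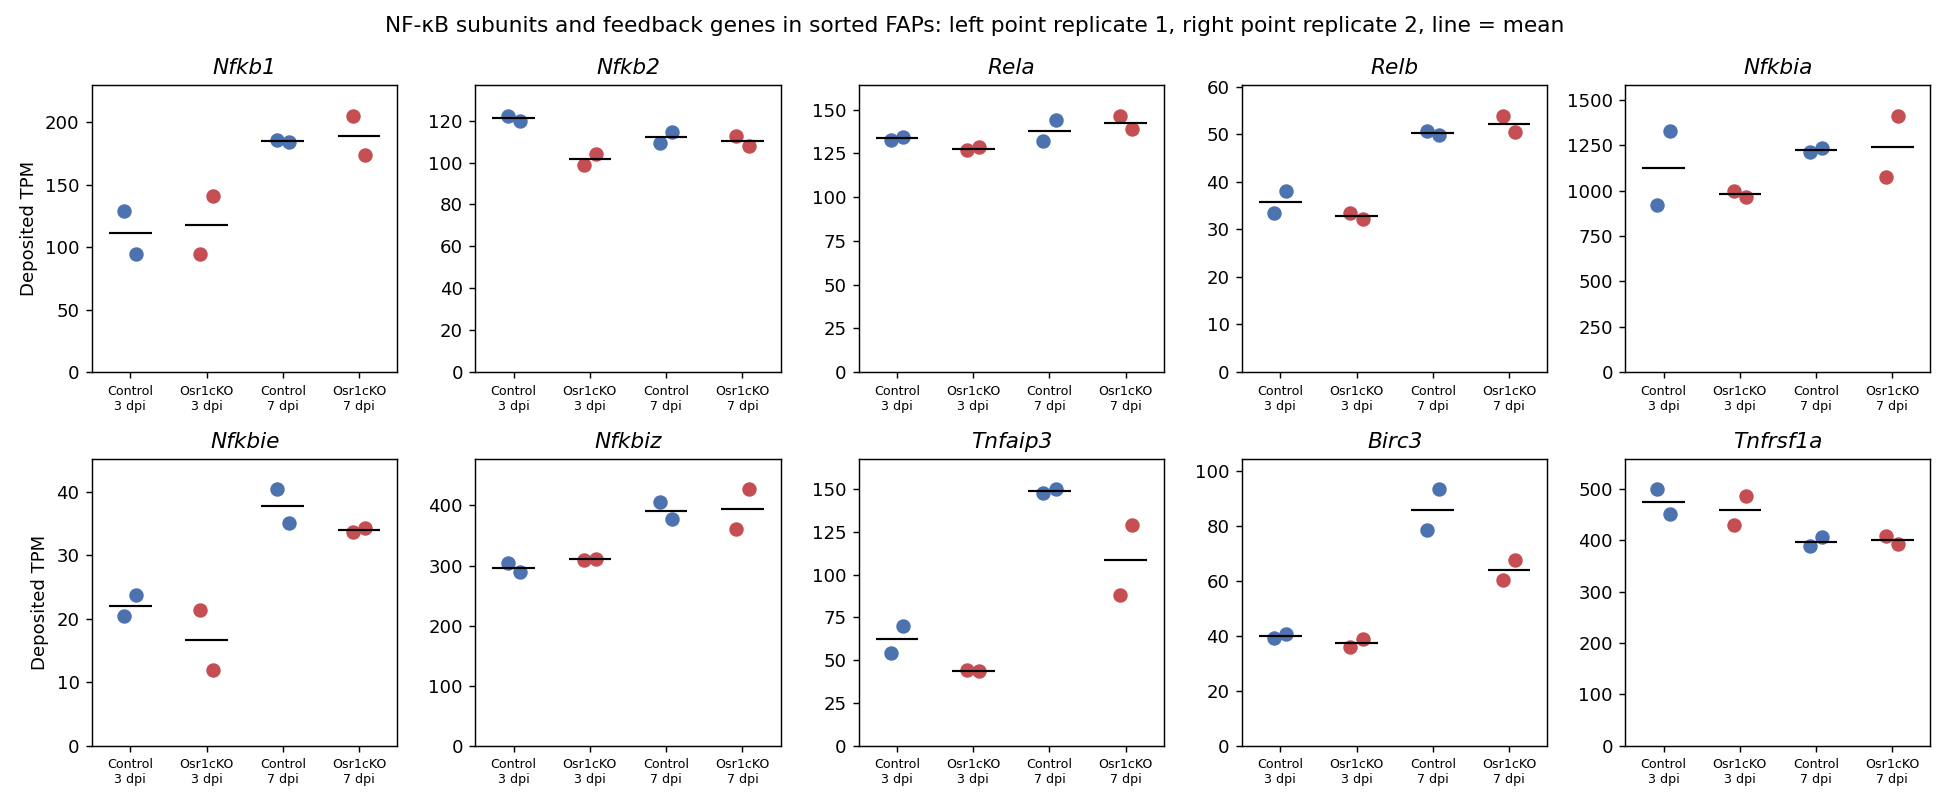
Deposited TPM (vertical axis, from 0) of the 10 NF-κB genes in each of the 8 libraries, by group along the horizontal axis; the left point of a group is replicate 1, the right point replicate 2 and the line their mean. Tnfaip3 and Birc3 were higher at 7 dpi than at 3 dpi in all libraries, and within each day lower in both Osr1cKO libraries than in both controls, whereas Rela (127 to 147 TPM) and Nfkb2 (99.1 to 122 TPM) had narrow ranges over all 8 libraries.

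The first comparison was between genotypes at 3 dpi. Of the 10 genes, Tnfaip3 alone passed the rule for this day (fold change over 1.2 and unadjusted p under 0.05), and it was lower in Osr1cKO FAPs. Tnfaip3 encodes A20, the ubiquitin-editing enzyme that shuts off TNF signalling to NF-κB. The control libraries had 54.5 and 69.7 TPM of it, the Osr1cKO libraries 44.0 and 43.9 TPM, so that both Osr1cKO values were below both control values. The means were 62.1 ± 10.8 and 44.0 ± 0.0853 TPM, a ratio of 0.708. Throughout, means and their ratios are of deposited TPM, and log2 fold changes are of scaled TPM + 1 unless stated. For Tnfaip3 the log2 fold change was -0.48 (SE 0.17) with an unadjusted p of 0.0355 and an adjusted p of 0.784 in limma. Of all 15699 genes tested, 6.27% passed the same rule and 3.87% did so in the lower direction, which is a background against which 1 of 10 does not stand out. No gene of the whole table passed an adjusted p of 0.1 in limma or in limma-voom, whereas 985 passed the unadjusted rule in limma.

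The call of Tnfaip3 at 3 dpi rested on single libraries. Its log2 fold change was -0.30 without replicate 2 of the control, -0.50 without replicate 1 of Osr1cKO and -0.45 without replicate 2 of Osr1cKO, and none of these fits kept the call. The fit without replicate 1 of the control kept it, at -0.66. Without replicate 1 of Osr1cKO, Nfkbie passed in place of Tnfaip3, with a log2 fold change of -0.85.

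The subunits differed little between genotypes at 3 dpi. Nfkb2, which encodes p100 and its product p52 of the non-canonical pathway, was at 122 and 120 TPM in control and at 99.1 and 104 TPM in Osr1cKO FAPs. These libraries did not overlap, but the log2 fold change of -0.25 (SE 0.11) did not pass (unadjusted p = 0.0776). Rela, the main activating subunit, was at 133 and 135 TPM against 127 and 129 TPM, again without overlap and with a log2 fold change of -0.06 (SE 0.11). Nfkb1, which encodes p105 and p50, varied within the genotypes more than between them: it was at 129 and 94.4 TPM in control and at 94.2 and 141 TPM in Osr1cKO FAPs. Relb, the partner of p52, was at 33.4 and 38.0 TPM in control and at 33.4 and 32.2 TPM in Osr1cKO FAPs. The summed TPM of these 4 subunits was 387 to 417 in control and 354 to 406 in Osr1cKO FAPs, so the ranges overlapped.

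The inhibitors and the receptor gave no call at 3 dpi. Nfkbia was at 918 and 1331 TPM in control and at 999 and 968 TPM in Osr1cKO FAPs, where the control libraries enclosed those of Osr1cKO. Nfkbie was at 20.5 and 23.7 TPM in control and at 21.4 and 12.0 TPM in Osr1cKO FAPs, with 1 Osr1cKO library far below the others and a log2 fold change of -0.43 (SE 0.31). Nfkbiz was at 304 and 289 TPM in control and at 310 and 312 TPM in Osr1cKO FAPs, and Tnfrsf1a at 499 and 450 TPM against 429 and 487 TPM. Birc3, which encodes the ubiquitin ligase cIAP2 of the TNF receptor complex, was at 39.3 and 40.7 TPM in control and at 35.9 and 38.8 TPM in Osr1cKO FAPs, with a log2 fold change of -0.09 (SE 0.12). In all, 8 of the 10 log2 fold changes were negative with a median of -0.10, beside a median of 0.01 over all genes tested. Nfkb2, Rela, Tnfaip3 and Birc3 were lower without overlap after scaling, and Nfkbiz was higher, where 18.0% and 18.5% of all genes were lower or higher without overlap.

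**Figure D2:**
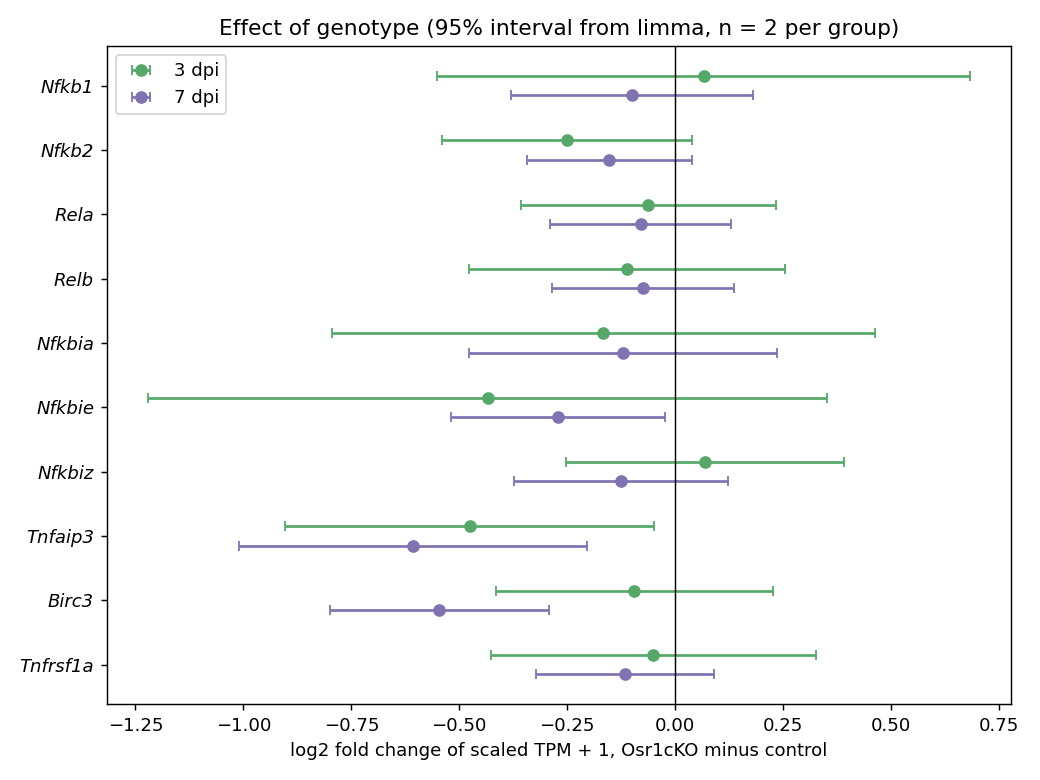
Log2 fold change of Osr1cKO against control FAPs (horizontal axis, log2 of scaled TPM + 1) for each of the 10 genes at 3 dpi (green) and 7 dpi (purple); points are limma estimates and bars their 95% intervals from 2 libraries per group. The intervals lie below 0 for Tnfaip3 at both days and for Birc3 and Nfkbie at 7 dpi, before adjustment for the number of genes tested, and those of all other genes include 0.

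At 7 dpi none of the 10 genes passed the rule for that day (fold change over 1.2 and adjusted p under 0.1), which 0.0664% of the 16578 genes tested passed, 0.0181% as higher and 0.0483% as lower, 11 genes in all. At a fold change over 1.2 and an unadjusted p under 0.05, which 11.1% of all genes passed, 5.3% as higher and 5.83% as lower, 3 of the 10 genes were lower in Osr1cKO FAPs: Birc3, Tnfaip3 and Nfkbie. The other inhibitor genes, Nfkbia and Nfkbiz, did not pass.

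Birc3 was at 78.6 and 93.5 TPM in control and at 60.4 and 67.6 TPM in Osr1cKO FAPs at 7 dpi. Both Osr1cKO libraries were below both controls. The means were 86.1 ± 10.5 and 64.0 ± 5.08 TPM, a ratio of 0.744. The log2 fold change was -0.42 on deposited TPM and -0.55 after scaling (SE 0.10, limma unadjusted p = 0.00221, adjusted p = 0.225). Without replicate 1 of the control Birc3 passed (log2 fold change -0.66, limma adjusted p = 0.0332), and it also passed in limma-voom on recovered fragments (adjusted p = 0.0694).

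Tnfaip3 was at 148 and 150 TPM in control and at 88.1 and 129 TPM in Osr1cKO FAPs at 7 dpi. The controls were nearly equal while the Osr1cKO libraries lay apart from each other, with both below the controls. The means were 149 ± 1.36 and 108 ± 28.8 TPM, a ratio of 0.729. The log2 fold change was -0.48 on deposited TPM and -0.61 after scaling (SE 0.16, limma unadjusted p = 0.0110, adjusted p = 0.301). Without replicate 1 of Osr1cKO, the lower of the pair, the log2 fold change was -0.37, and without replicate 2 it was -0.85. Nfkbie was at 40.4 and 35.2 TPM in control and at 33.8 and 34.3 TPM in Osr1cKO FAPs, with a log2 fold change of -0.27 (SE 0.10, unadjusted p = 0.0372, adjusted p = 0.367). Its log2 fold change was -0.17 without replicate 1 of the control (limma unadjusted p = 0.227) and -0.14 on deposited TPM (unadjusted p = 0.183), and its unadjusted p was also over 0.05 without either Osr1cKO library and with all 8 libraries in one fit.

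The subunits, Nfkbia, Nfkbiz and Tnfrsf1a did not pass at 7 dpi under either rule. Nfkb1 was at 186 and 184 TPM in control and at 205 and 173 TPM in Osr1cKO FAPs, and Relb at 50.7 and 49.8 TPM against 53.9 and 50.4 TPM. Rela was at 132 and 144 TPM against 147 and 139 TPM, and Nfkb2 at 109 and 115 TPM against 113 and 108 TPM. For these 4 genes the libraries of the genotypes overlapped. Nfkbia was at 1214 and 1233 TPM in control and at 1073 and 1413 TPM in Osr1cKO FAPs, so that the Osr1cKO libraries enclosed the controls. Nfkbiz was at 405 and 378 TPM against 361 and 427 TPM, and Tnfrsf1a at 388 and 405 TPM against 408 and 393 TPM, also with overlap.

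The sign of the smaller values depended on scaling. After scaling between libraries all 10 log2 fold changes at 7 dpi were negative, with a median of -0.12 beside 0.01 over all genes. On the deposited TPM without scaling the median of all genes was itself shifted to 0.11, and 4 of the 10 genes were negative (Nfkb2, Nfkbie, Tnfaip3 and Birc3), with Nfkb1, Rela, Relb, Nfkbia, Nfkbiz and Tnfrsf1a between 0.00 and 0.05. Relative to the median of all genes, the median of the 10 genes was -0.13 after scaling and -0.10 without it. After scaling Nfkb2, Nfkbie, Tnfaip3, Birc3 and Tnfrsf1a were lower without overlap, as were 22.5% of all genes, and on deposited TPM Nfkbie, Tnfaip3 and Birc3 were.

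Levels of other transcripts were set beside these results. The 11 immediate early and heat shock genes that respond to tissue dissociation, among them Fos, Jun, Atf3 and Hspa1a, summed to 17210 and 16890 TPM in control FAPs at 7 dpi and to 13570 and 17050 TPM in Osr1cKO FAPs. All 11 had negative log2 fold changes at 7 dpi with a median of -0.36, of which 6 were lower at a fold change over 1.2 and an unadjusted p under 0.05, and on deposited TPM 9 of the 11 were negative. The library with the lowest sum, replicate 1 of Osr1cKO, was also the one with the lowest Tnfaip3 and Birc3 of that day. Replicate 2 of Osr1cKO had a sum between those of the controls, while its Tnfaip3 and Birc3 were below both controls. Of the single early genes, Junb, Egr1, Btg2, Hspa1a, Hspa1b and Dnajb1 were also below both controls in both Osr1cKO libraries on deposited TPM. The genotypes overlapped for Fos, Fosb, Jun, Atf3 and Ier2. Btg2 was at 461 and 558 TPM in control and at 275 and 389 TPM in Osr1cKO FAPs, and Fos at 3250 and 3140 TPM against 3099 and 3836 TPM. At 3 dpi the controls summed to 8729 and 10440 TPM, against 10060 and 7858 TPM for Osr1cKO FAPs, which Tnfaip3 followed within the controls (54.5 and 69.7 TPM) and not within Osr1cKO FAPs (44.0 and 43.9 TPM). The part of these genes in the results was not tested. The summed macrophage markers given above were higher in both Osr1cKO libraries of 7 dpi than in both controls. In limma none of the 10 had a negative log2 fold change, and 2 passed a fold change over 1.2 and an unadjusted p under 0.05. Cd14 was at 12.3 and 9.94 TPM in control and at 26.8 and 25.5 TPM in Osr1cKO FAPs. Lyz2, at 23.9 and 21.1 TPM against 19.5 and 36.1 TPM, overlapped. Cd14 was also the 1 macrophage marker called at 3 dpi, at 7.97 and 8.12 TPM against 10.95 and 20.55 TPM. At that day 5 of the 10 macrophage markers had negative log2 fold changes. The part of these markers was not tested either.

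The comparison of days showed the larger differences. In control FAPs 6 of the 10 genes were higher at 7 dpi than at 3 dpi (fold change over 1.2 and adjusted p under 0.05 over 17371 genes), and none was lower, where 45.3% of all genes passed, 21.2% as higher and 24.1% as lower. In Osr1cKO FAPs 4 of the 10 were higher and none lower, where 40.9% of all genes passed, 17.3% as higher and 23.6% as lower. The genes that passed in both genotypes were Tnfaip3, Birc3, Nfkbie and Relb, and those that passed in control FAPs alone were Nfkb1 and Nfkbiz. After scaling, the libraries of the days did not overlap for 8 of the 10 genes in either genotype, with 7 higher and Tnfrsf1a lower at 7 dpi. On deposited TPM, Nfkb2 was also lower without overlap in control FAPs, where Rela overlapped, and in Osr1cKO FAPs Nfkb2 and Rela were also higher without overlap. Of all genes, after scaling, 37.6% were higher and 36.9% lower without overlap in control FAPs, and 37.2% and 39.4% in Osr1cKO FAPs.

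Tnfaip3 and Birc3 differed most between the days in control FAPs, and Tnfaip3 and Nfkbie in Osr1cKO FAPs. Tnfaip3 rose from 62.1 to 149 TPM in control FAPs, 2.40-fold, with a log2 fold change of 1.33 (SE 0.19, limma adjusted p = 0.00169). In Osr1cKO FAPs it rose from 44.0 to 108 TPM, 2.47-fold, with a log2 fold change of 1.15 (SE 0.19, limma adjusted p = 0.00357). The folds are ratios of deposited means and the log2 fold changes are of scaled TPM + 1, so the 2 measures order the genotypes differently. Birc3 rose from 40.0 to 86.1 TPM in control FAPs, with a log2 fold change of 1.15 (SE 0.11, adjusted p = 0.000471). In Osr1cKO FAPs Birc3 rose from 37.4 to 64.0 TPM, with a log2 fold change of 0.66 (SE 0.11, adjusted p = 0.00410). In both genes every 7 dpi library was above every 3 dpi library of its genotype, and the call held without any single library in limma.

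Of the other genes, Nfkbie rose by a log2 fold change of 0.82 (SE 0.25, adjusted p = 0.0340) in control and 0.94 (SE 0.25, adjusted p = 0.0232) in Osr1cKO FAPs. Relb rose by 0.56 (SE 0.12) and 0.55 (SE 0.12), with adjusted p of 0.00832 and 0.0101 in limma. Nfkb1 rose by 0.81 (SE 0.21, adjusted p = 0.0162) in control FAPs, and its value of 0.60 (SE 0.21) in Osr1cKO FAPs had an adjusted p of 0.0523, which passed on deposited TPM (0.0385), with median of ratios scaling (0.0431), with a mean of at least 1 TPM (0.0363) and in limma-voom (0.0475). Nfkbiz rose by 0.47 (SE 0.11, adjusted p = 0.0119) in control FAPs and had a value of 0.23 (SE 0.11, adjusted p = 0.132) in Osr1cKO FAPs. For these 4 genes the call depended on the libraries: without replicate 1 of the control at 7 dpi, Relb, Tnfaip3 and Birc3 were called in control FAPs, 3 in place of 6, and without replicate 1 of Osr1cKO at 7 dpi, Tnfaip3 and Birc3 were called in Osr1cKO FAPs, 2 in place of 4.

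The other members had values near 0 or below it. Rela had log2 fold changes of 0.12 (SE 0.10) in control and 0.05 (SE 0.10) in Osr1cKO FAPs, and Nfkb2 had -0.04 and 0.01 (both SE 0.09). Nfkbia had 0.22 (SE 0.23) in both genotypes, with intervals from -0.32 to 0.76. Tnfrsf1a had -0.18 (SE 0.11, adjusted p = 0.215) in control and -0.30 (SE 0.11, adjusted p = 0.0697) in Osr1cKO FAPs. The ratio of the partner genes of the non-canonical pathway, Nfkb2 over Relb, was 2.96 to 3.66 in the 4 libraries of 3 dpi and 2.09 to 2.30 in those of 7 dpi. Likewise Tnfaip3 over Nfkbia was 0.0523 to 0.0593 in control FAPs at 3 dpi and 0.121 to 0.122 at 7 dpi, and 0.0441 to 0.0454 and 0.0821 to 0.0911 in Osr1cKO FAPs. Within each day the control libraries were above the Osr1cKO libraries in this ratio.

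**Figure D3:**
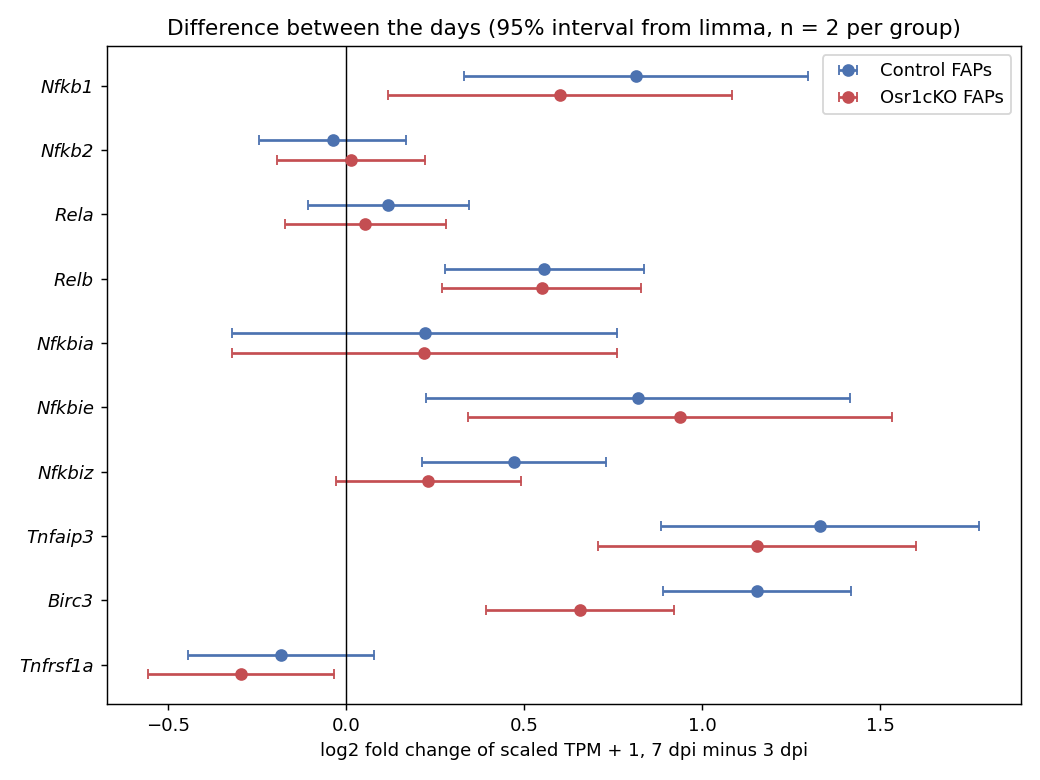
Log2 fold change of 7 dpi against 3 dpi (horizontal axis, log2 of scaled TPM + 1) for each of the 10 genes in control (blue) and Osr1cKO FAPs (red); points are limma estimates over all 8 libraries and bars their 95% intervals. Tnfaip3 is furthest from 0 in both genotypes (1.33 and 1.15), the intervals of Nfkb2, Rela and Nfkbia include 0 in both, and the genotypes' estimates lie furthest apart for Birc3 (1.15 and 0.66).

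The early genes moved with the days as well. Their sum was 7858 to 10440 TPM in the libraries of 3 dpi and 13570 to 17210 TPM in those of 7 dpi, and 6 of the 11 were called higher in control FAPs and 5 in Osr1cKO FAPs, with median log2 fold changes of 1.08 and 0.82. Macrophage, tenocyte and myofiber markers were also higher at 7 dpi, the tenocyte markers rising from 46.7 to 83.0 TPM in sum at 3 dpi to 238 to 677 TPM at 7 dpi. The part of these transcripts in the difference between the days was not tested.

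The interaction asked whether the effect of genotype differed between the days. None of the 10 genes passed an adjusted p under 0.05 in limma, and neither did any of the 17371 genes tested, of which 1208 had an unadjusted p under 0.05. Birc3 had the smallest p of the 10 genes: its effect of genotype was lower by 0.50 on the log2 scale at 7 dpi than at 3 dpi (95% interval -0.87 to -0.12, unadjusted p = 0.0160, adjusted p = 0.649). For Tnfaip3 the value was -0.18 with an interval from -0.81 to 0.46. The unadjusted p of the other 8 genes lay between 0.164 and 0.999.

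Across the 8 libraries, Tnfaip3 and Birc3 had similar profiles, with a Pearson correlation of 0.96 on the log2 scale. This is a description over libraries that share the differences between groups and days. Among 10385 genes with a mean of at least 5 TPM, Birc3 ranked 27th in likeness to Tnfaip3, and Tnfaip3 74th in likeness to Birc3. The genes most like Tnfaip3 were Zeb2 (0.99), Gkap1 (0.99) and Slc25a45 (0.98), those most like Birc3 included Armh4 and Has2os (each 0.99), and those most like Nfkb1 were Ets2, Nckap5l and Ash1l (each 0.99). Relb was at 0.92 with Tnfaip3, and Nfkb1 at 0.73. Nfkb2 and Nfkb1 had a correlation of -0.02, and Tnfrsf1a was at -0.73 with Tnfaip3.

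The other parts of the pathway were described with 6 lists of 81 genes. At 3 dpi, 75 of these were tested. Under the rule for that day 2.4% of all genes were higher and 3.87% lower, and 48.2% of all genes had a negative log2 fold change. Of the 75 list genes 4 were higher and 8 lower in Osr1cKO FAPs, with a median log2 fold change of -0.16 and 51 of 75 negative. Without replicate 2 of the control the counts were 4 higher and 20 lower, and without replicate 2 of Osr1cKO 1 higher and 6 lower. None of the 12 IκB and upstream kinases, the 4 other Rel and IκB family genes and the 9 tested receptors passed. Of 17 adaptors and ubiquitin enzymes, Tnip1, which binds A20, was lower (61.8 and 54.1 TPM in control, 40.7 and 44.6 TPM in Osr1cKO FAPs; log2 fold change -0.43, SE 0.13). Of 4 tested ligands, Tnfsf11 (RANKL) was higher, at 6.18 and 4.39 TPM against 10.2 and 18.0 TPM, and Tnfsf10 (TRAIL) was lower, at 6.62 and 6.11 TPM against 3.93 and 1.02 TPM. Tnf itself was at 11.8 and 10.7 TPM in control and at 7.86 and 1.91 TPM in Osr1cKO FAPs and did not pass (unadjusted p = 0.0703 in limma).

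Of the 29 NF-κB target genes, 3 were higher and 6 lower at 3 dpi, and the others did not pass. Under the same unadjusted rule 2.4% of all genes were higher and 3.87% lower. None of the target genes passed an adjusted p of 0.1 in limma. Higher were the cytokine genes Ccl20 and Lif and the matrix-binding gene Tnfaip6, and lower were the chemokine genes Ccl2, Ccl5, Ccl7 and Cxcl10, the survival gene Bcl2l1 and the complement gene Cfb. Ccl2, which attracts monocytes, was at 3608 and 3556 TPM in control and at 2153 and 2173 TPM in Osr1cKO FAPs. Lif was at 156 and 183 TPM in control and at 264 and 249 TPM in Osr1cKO FAPs, opposite to Ccl2. Cfb was at 110 and 86.9 TPM against 54.5 and 42.1 TPM, with a log2 fold change of -1.01 (SE 0.20). Cxcl10, an interferon-responsive chemokine gene, was at 1438 and 1264 TPM against 573 and 206 TPM.

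At 7 dpi, 77 genes of the lists were tested and none passed the adjusted rule, whereas 5 higher and 6 lower passed without replicate 1 of the control and 2 higher and 2 lower without its replicate 2. In limma-voom 3 higher and 4 lower passed, and with a replicate block 2 higher and 0 lower. At a fold change over 1.2 and an unadjusted p under 0.05, which 11.1% of all genes passed, 10 were higher and 16 lower in Osr1cKO FAPs, with a median of -0.06 after scaling and 0.07 on deposited TPM. Bcl3, a nuclear IκB protein, was at 153 and 182 TPM in control and at 123 and 140 TPM in Osr1cKO FAPs (log2 fold change -0.47, SE 0.10). Ripk1, the kinase of the TNF receptor complex, was at 65.8 and 69.0 TPM against 52.9 and 59.4 TPM (-0.39, SE 0.08), and Rnf31, the catalytic ligase for linear ubiquitin chains, at 23.7 and 28.4 TPM against 19.5 and 19.7 TPM (-0.51, SE 0.11). In the opposite direction, Il1rl1, the interleukin-33 receptor, was at 197 and 156 TPM against 504 and 383 TPM (1.19, SE 0.19), Tnfsf11 at 19.4 and 15.7 TPM against 48.7 and 25.6 TPM (0.85, SE 0.31), and the acute phase gene Saa3 at 37.0 and 30.7 TPM against 112 and 87.9 TPM (1.40, SE 0.16). At 3 dpi Il1rl1 had been lower in Osr1cKO FAPs, at 341.4 and 365.1 TPM against 294.5 and 306.6 TPM (-0.23, SE 0.13). Its interaction did not pass (1.37, limma adjusted p = 0.424). Il6 was at 296 and 363 TPM in control and at 217 and 219 TPM in Osr1cKO FAPs at 7 dpi (-0.71, SE 0.11). All of these genes missed the adjusted p of 0.1 for genotype at 7 dpi in limma, with Saa3 at 0.143 and Il6 at 0.217.

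**Figure D4:**
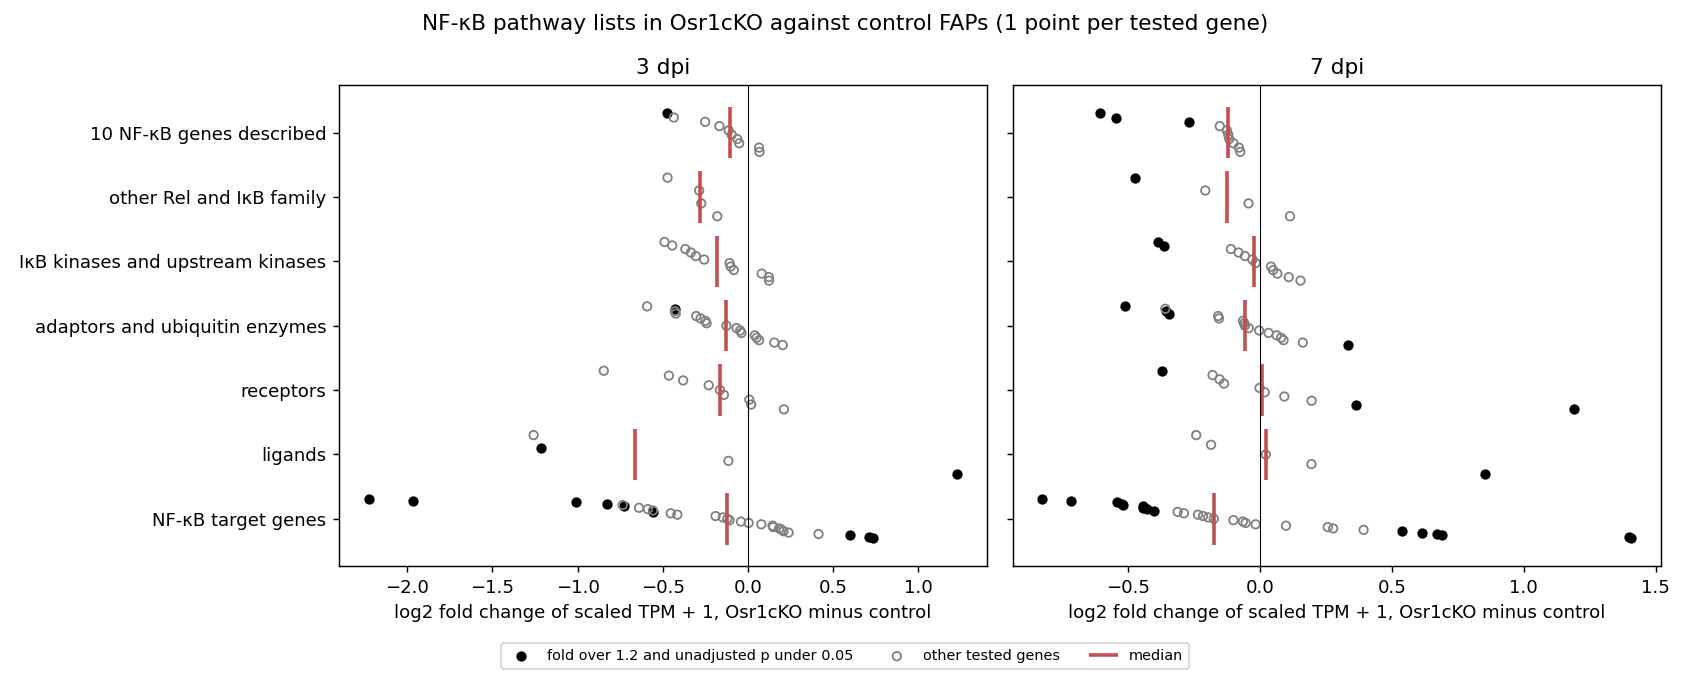
Log2 fold change of Osr1cKO against control FAPs (horizontal axes, log2 of scaled TPM + 1) at 3 dpi (left) and 7 dpi (right) for the 10 NF-κB genes and the 6 pathway lists, with 1 point per tested gene, spread vertically for sight. Filled points passed a fold change of 1.2 and an unadjusted p of 0.05, and the red bar is the median of a list; filled points lie on both sides of 0 among the target genes at both days, while those of the 10 genes are all below 0.

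Between the days, the lists did not share the direction of the 10 genes. In control FAPs 17 of 77 list genes were higher and 23 lower at 7 dpi, with a median of -0.19. Under the same rule 21.2% of all genes were higher and 24.1% lower. Of the 10 genes 6 were higher and 0 lower, with a median of 0.51. In Osr1cKO FAPs 13 list genes were higher and 16 lower, with a median of -0.07, beside 17.3% and 23.6% of all genes. On deposited TPM 16 list genes were higher and 10 lower in Osr1cKO FAPs. Without replicate 2 of the control at 7 dpi the control counts were 9 and 15, and those of Osr1cKO were 8 and 8 without its replicate 1 at 7 dpi and 6 and 7 without its replicate 2. Rel, the subunit gene that is no member of the 10, rose in both genotypes (log2 fold changes 0.53 and 0.55, both SE 0.15), as did Ripk1 (0.79 and 0.43) and the adhesion gene Icam1 (1.14 and 0.72). Ccl2 fell by 1.97 and by 1.36 on the log2 scale and Csf1 had log2 fold changes of -2.18 and -2.12. Il6 rose in control FAPs (1.42, SE 0.34, adjusted p = 0.0130) and had a value of 0.45 (SE 0.34, adjusted p = 0.322) in Osr1cKO FAPs, a difference that did not pass as an interaction (adjusted p = 0.773).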

How the data were processed

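RNA-seq libraries of 8 FAP samples were used. The authors used STAR for alignment to mm10 and DESeq2 for normalization, and deposited TPM per gene symbol. The counter, its annotation and its use of strand are not given in the sources used here; Nfkb2 shares exon bases with genes of the opposite strand, among them Psd (299 bases), so its value is uncertain to that extent. Of 55385 entries per library, 109 repeats of a symbol were left out. With exon lengths of GENCODE M21 (GRCm38), 98.7% to 98.9% of low values came within 0.02 of whole fragments, which gave the depth. The smallest fragment number behind a member, 477, gives a counting error of 4.58%, and counting intervals cover counting error only.

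Libraries were scaled to each other with trimmed log ratios of TPM (trim 30%). limma 3.58.1 (R 4.3.3; lmFit, eBayes with trend) was run on log2(scaled TPM + 1), so that fold changes of low genes are understated, over genes with at least 10 fragments in 2 libraries and 15 in all; a symbol with no length needed a mean of 1 TPM. Each day was fitted on its 4 libraries, and days and interaction on all 8, with Benjamini-Hochberg adjustment over all genes tested. The thresholds for genotype followed the study's methods, but the test did not, since the study used DESeq2. The procedure was tested on simulated data. The members and lists (6 pathway lists, markers of cell types, early genes) were chosen with earlier results of these data known. Named were all members, the 2 genes of smallest unadjusted p per pathway list and day without overlap between genotypes and with a mean of at least 1 TPM, the 3 genes most like each member (1 of which is not reported here; given for Tnfaip3, Birc3 and Nfkb1), and Osr1; further list genes (Tnf, Ccl2, Cxcl10, Rel, Icam1, Csf1 and those listed as passing) were chosen after their values were seen. Alternatives were other scalings, filters and pseudocounts, robust eBayes, limma-voom on recovered fragments, replicate blocks, other call thresholds, all libraries fitted at once, and each library dropped in turn. Python 3.11.15, pandas 2.3.3 and NumPy 2.4.6 were used. Promoter sequences are from RefSeq.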

Additional observations from a re-analysis of the deposited data

How the results depend on the processing

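The number of the 10 genes called in the genotype comparison at 3 dpi was 1, and it was 0 without a filter on low values, 0 with all 8 libraries in one fit, 0 at an adjusted p under 0.1, and 0 to 1 when each library was left out. At 7 dpi it was 0, and it was 1 with limma-voom, 3 at a fold change over 1.2 and an unadjusted p under 0.05, and 0 to 1 when each library was left out. Between the days in control FAPs it was 6, against 3 without a filter and 3 to 6 when a library was left out, and in Osr1cKO FAPs it was 4, against 2 to 6 when a library was left out, 6 on deposited TPM or with a mean of at least 1 TPM (with Nfkb1 and Nfkbiz), 5 with median of ratios scaling or limma-voom (with Nfkb1) and 3 without a filter (without Nfkbie). The interaction gave 0 in every alternative run. The cause was not tested.

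Signs that reversed belonged to values that were not called. On deposited TPM at 7 dpi, the log2 fold change of genotype was 0.029 for Nfkb1, 0.049 for Rela, 0.053 for Relb, 0.0092 for Nfkbia, 0.0036 for Nfkbiz and 0.013 for Tnfrsf1a, and the Tnfaip3 interaction was 0.0003. Between the days, Nfkb2 in control FAPs was 0.029 with a mean of at least 1 TPM, and without a filter Nfkb2 was -0.042 and Rela -0.0008 in Osr1cKO FAPs. When a library was left out, the genotype value ranged from -0.20 to 0.33 for Nfkb1 and from -0.45 to 0.10 for Nfkbia, and from -0.13 to 0.013 for Tnfrsf1a at 3 dpi, and from -0.26 to 0.045 for Nfkb1 and from -0.29 to 0.041 for Nfkbia at 7 dpi. The day value ranged from -0.092 to 0.53 for Nfkbia in control FAPs, and from -0.035 to 0.093 for Nfkb2 and from -0.0021 to 0.14 for Rela in Osr1cKO FAPs. The Tnfaip3 interaction ranged from -0.41 to 0.070.

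The same replicate numbers stand in all groups. Differences between replicates 2 and 1 correlated at -0.13 between the genotypes at 3 dpi and at 0.06 at 7 dpi, so the numbers did not pair the samples. A replicate block gave 1 and 0 of the 10 genes called at 3 and 7 dpi, 6 and 4 between the days and 0 for the interaction, the same counts as without it for these genes. A crossed replicate block at 3 dpi, added after the data were seen, gave 1.

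Over all genes, the 377 higher and 608 lower calls at 3 dpi became 928 and 906 with all 8 libraries in one fit, and the 3 higher and 8 lower at 7 dpi became 77 and 122 with limma-voom, 13 and 14 with the replicate block, and 0 on deposited TPM, with a mean of at least 1 TPM or without a filter. Leaving out a library leaves its group with 1 library, which is then assumed to vary like the others.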

Other observations

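Markers of other cell types were summed per library. The 8 FAP markers, which include collagen genes, summed to between 26760 and 54220 TPM per library. Endothelial markers summed to 4.98 and 19.5 TPM in control FAPs at 3 dpi, where replicate 1 had the higher value, to at most 2.76 TPM in Osr1cKO FAPs at 3 dpi, and to between 7.75 and 14.0 TPM at 7 dpi. Neutrophil markers summed to between 1.21 and 17.9 TPM, lymphoid markers to between 4.36 and 16.0 TPM, general leukocyte markers to between 0.505 and 4.85 TPM and Schwann cell markers to between 3.61 and 17.5 TPM. Muscle stem cell markers reached 41.8 TPM and myofiber markers 71.7 TPM, both in replicate 1 of control FAPs at 7 dpi, and erythroid markers lay between 0 and 54.1 TPM.

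Tenocyte markers, which are also expressed by connective tissue progenitors, differed between the genotypes at 7 dpi. They summed to 238 and 333 TPM in control FAPs and to 550 and 677 TPM in Osr1cKO FAPs. All 4 markers (Scx, Tnmd, Mkx and Fmod) had an unadjusted p under 0.05 in limma, each with the higher value in Osr1cKO FAPs, and none passed an adjusted p of 0.1. This was opposite in direction to Birc3 and Tnfaip3, and its part in their values was not tested.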
